A study of Mus musculus with 36 samples.

Results

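The effect of a periodontal ligature on epididymal white adipose tissue (eWAT) was examined in wild-type (WT) mice fed a 40% high-fat diet (HFD). The comparison took every library with these labels, which were 6 of the 36 libraries of the series: 3 mice that had carried a ligature for 2 weeks (s40WL) and 3 mice whose labels name no ligature (s40W). All 6 were male C57BL/6 mice of WT genotype that ate the 40% HFD for 10 weeks in all. The ligature, a silk thread tied around an upper molar, was placed at 14 weeks of age, after 8 weeks of the diet. Per the methods, lymph nodes were cut out of the fat before RNA was prepared, and no sham operation is described for mice without ligatures. The methods describe sequencing of eWAT from ligatured mice, and s40W was taken as unligatured from its labels alone. The other 30 libraries came from mice on a normal diet (ND) or a 60% HFD and from CCL19-KI mice, in which *Ccl19* is expressed from the *Adipoq* locus, again with 3 mice in each of the 12 groups of the series. They entered the fit as a shared estimate of the spread between mice, and 3 of their ligature comparisons were set beside this one.

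A ligature around a molar gathers bacterial plaque and sets off a local gingivitis with loss of alveolar bone, and the question here was what a distant fat depot looked like while this went on. White adipocytes store fatty acids as triglyceride in a single large lipid droplet and release adipokines such as adiponectin and leptin into the blood. Type I interferons and bacterial products switch on a common set of interferon-stimulated genes through factors such as IRF9 and IRF7, whose binding sites often hold short GAAA repeats. The acute phase proteins, among them the serum amyloids, are made mainly by the liver and also by inflamed fat.

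The deposited values are edgeR-normalized counts scaled to the library (CPM), given here as normalized CPM. The 6 libraries held between 13734438 and 16082909 reads, so that 3 reads in a library corresponded to 0.190 to 0.241 normalized CPM. The tissue label was checked against 12 adipocyte markers, all of which were found in all 6 mice. Their summed level was 6299, 20510 and 21350 normalized CPM in s40W replicates 1, 2 and 3, and 28280, 31270 and 36240 in s40WL replicates 1, 2 and 3. All ligatured mice were thus above all mice without ligature, and s40W replicate 1 was below the range of the other 30 libraries of the series, 10130 to 37380.

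A pair of libraries stood apart from the other 4, at opposite ends of the first principal component, which held 58.7% of the variance of the 6. The s40W replicate 1 held the most red cell RNA of the series, with a sum over 7 erythroid markers of 11340 normalized CPM against 244 to 612 in the other 5 mice. It also had the highest sum of 10 kidney tubule markers of the 6, 314 against 48.5 to 165. The s40WL replicate 2 had the lowest sum over 18 hepatocyte markers, 1964 normalized CPM against 11390 to 47160, and the highest sum over 12 B cell markers, 497 against 119 to 317. Its genes of high GC content were shifted against those of low GC content by -0.35 on the log2 scale, outside the range of -0.17 to 0.27 of the 30 libraries not compared here. Calls that were lost when the one or the other of these libraries was left out are named or counted beside the results.

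**Figure D1:**
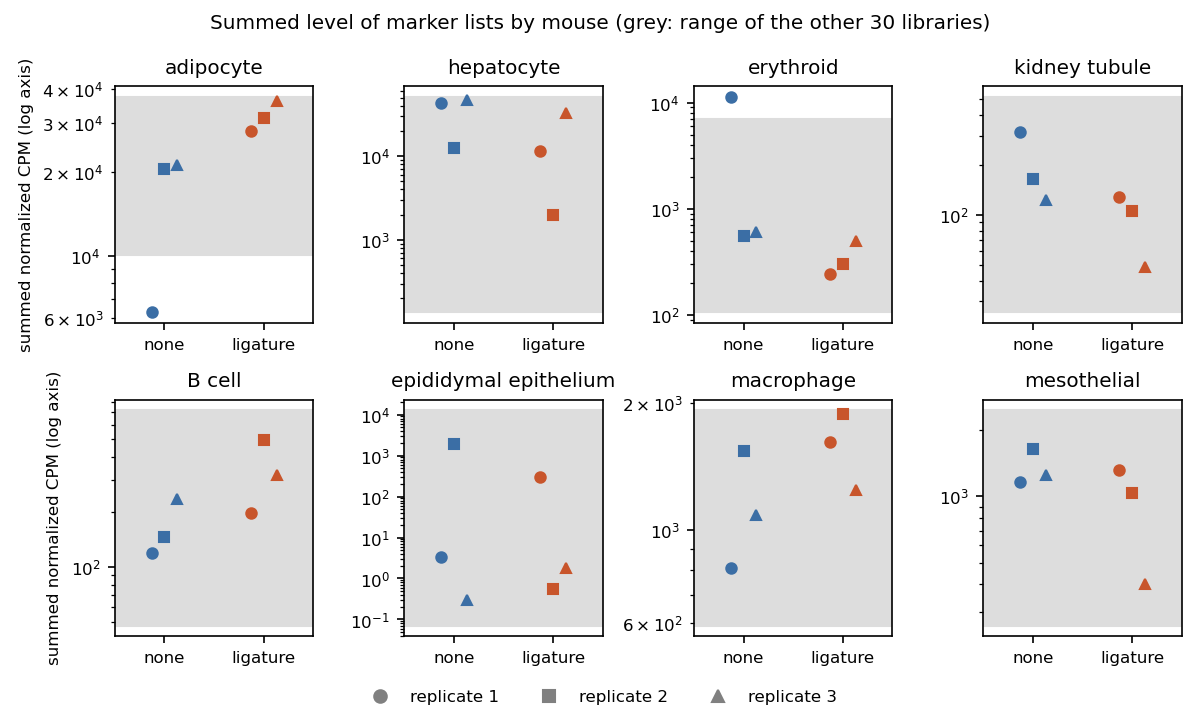
Summed level of 8 marker lists (normalized CPM, log axis) in each of the 6 WT mice on the 40% HFD; blue, no ligature; orange, ligature; the grey band is the range of the other 30 libraries. The adipocyte sum of s40W replicate 1 (6299) lies under the band and its erythroid sum (11340) over it, and the hepatocyte sum of s40WL replicate 2 (1964) is the lowest of the 6.

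Across the genome no gene passed an adjusted p of 0.05 in limma: 0 of 17852 genes tested (0%), with a smallest adjusted p of 0.0647. At an unadjusted p under 0.05 there were 2675 genes (15.0%), where 5% are expected if no gene differs. This share was 4.9% without s40W replicate 1 and 2.75% without s40W replicate 1 and s40WL replicate 2 together. It was 7.51% with only the 6 mice compared and 23.2% without s40W replicate 2. edgeR on the recovered reads called 1 gene, *Bcar1*. DESeq2 called 127, but it gave no adjusted p for 6589 of the 17852 genes, so its adjustment ran over fewer genes. By the study's criteria for differentially expressed genes (DEGs), an unadjusted p not above 0.05 with a ratio of 1.5 or more, or of 0.67 or less, 652 genes (3.65% of those tested) were higher with ligature and 938 (5.25%) were lower. Every statement below on a DEG rests on these criteria and not on an adjusted p. The values of all 3 ligatured mice lay above those of all 3 others for 1406 genes (7.88%) and below them for 1363 genes (7.63%), and an exact two-sided permutation test of 3 against 3 mice cannot go below a p of 0.1.

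These counts rested to a large part on a single mouse. Without s40W replicate 1, 247 genes were higher (1.39%) and 252 lower (1.42%), and 364 of the 1590 DEGs (22.9%) were found again. Without s40WL replicate 2, 507 were higher and 359 lower, and without both libraries 143 and 151. Without s40W replicate 2 the count went the other way, to 965 higher and 2008 lower. A core of 171 DEGs, 92 higher and 79 lower, met the criteria in all 6 fits that left out 1 mouse each, and 169 of them also did so after correction for GC content and in edgeR. The balance of the directions depended on the scaling: with quantile normalization 941 genes were higher and 572 lower, so that 62.2% of the DEGs were higher against 41.0% as reported above.

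**Figure D2:**
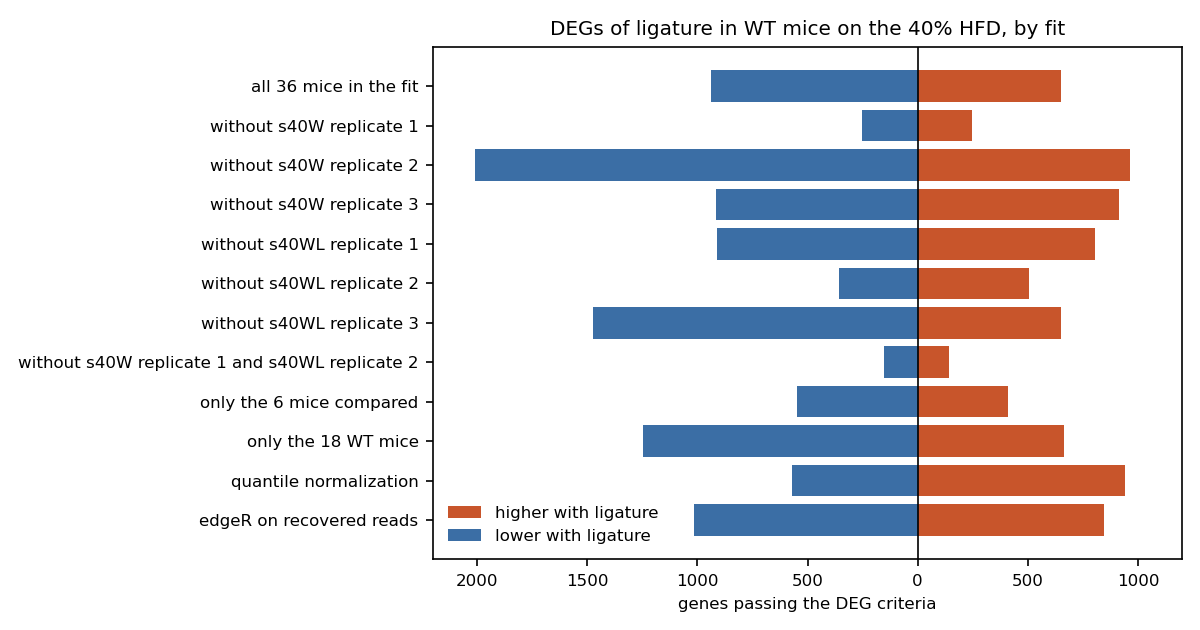
Number of genes meeting the DEG criteria for ligature against no ligature in WT mice on the 40% HFD, higher (orange, to the right) and lower (blue, to the left), for each fit named on the left. The count was lowest without s40W replicate 1 and s40WL replicate 2 (143 higher, 151 lower) and highest without s40W replicate 2 (965 higher, 2008 lower).

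Genes of the fat cell were higher in the ligatured mice. Of the 12 adipocyte markers 7 were DEGs, all higher (*Adipoq*, *Cidec*, *Retn*, *Fabp4*, *Lipe*, *Pnpla2* and *Lpl*), where 3.65% of all genes were. The log2 fold change was above 0 for all 12, with a median of 1.01 against -0.02 over all genes tested. *Cidec*, which lets lipid droplets fuse into the large droplet of a white adipocyte, was at 554, 1425 and 1715 normalized CPM in s40W replicates 1 to 3 and at 2658, 2999 and 3761 in the ligatured mice. The groups did not overlap, and the log2 fold change was 1.49 ± 0.37 (SE, adjusted p = 0.182 in limma). *Fabp4*, the fatty acid carrier of the adipocyte, was at 2009, 5165 and 5529 against 8151, 10910 and 10110, with a log2 fold change of 1.32 ± 0.40 (adjusted p = 0.235 in limma). In both genes s40W replicate 1 was lowest, the ligatured mice were also above the other 2, and both met the DEG criteria in all 6 fits that left out a mouse. *Adipoq*, which encodes adiponectin, was at 615, 2120 and 2013 without ligature and at 2786, 3823 and 3937 with it, with a log2 fold change of 1.33 ± 0.50 (adjusted p = 0.258 in limma).

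The part played by s40W replicate 1 in these values was large. Without it the median of the 12 adipocyte markers was 0.48 and 2 of the 12 were DEGs (background 1.39%). Without s40WL replicate 2 as well the median was 0.57 with 1 DEG, where 143 of 17738 genes were higher DEGs. Without s40W replicate 1 alone the log2 fold change was 0.99 for *Cidec*, 0.85 for *Fabp4* and 0.75 for *Adipoq*, where *Adipoq* was no longer a DEG. In a bulk tissue, more adipocytes among the cells and more of these transcripts in each adipocyte cannot be told apart.

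Genes that bring fatty acids into the cell and build triglyceride from them, a list that shares *Fabp4* and *Lpl* with the adipocyte markers, held 6 DEGs among 12, all higher (3.65% of all genes), with a median log2 fold change of 0.70. Without s40W replicate 1 the median was 0.39 with 1 DEG (1.39% of all genes), and without both libraries the list held 0 DEGs in limma. *Cd36*, the fatty acid translocase, was at 684, 2008 and 2451 normalized CPM without ligature and at 3351, 3662 and 3773 with it, with no overlap and a log2 fold change of 1.26 ± 0.39, and it was not a DEG without s40W replicate 1. *Slc27a1*, a fatty acid transporter, *Aqp7*, the glycerol channel of the adipocyte, and *Dgat1*, which adds the last fatty acid of a triglyceride, were higher by 1.01, 0.99 and 0.79 on the log2 scale. Of the enzymes in the glycerol phosphate branch none was a DEG: *Gpam* was at a log2 fold change of 0.40, *Agpat2* at 0.01 and *Gpd1* at -0.24.

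The list of lipolysis and lipid droplet genes shares *Cidec*, *Lipe*, *Plin1* and *Pnpla2* with the adipocyte markers. It gave 4 DEGs among 12, all higher (3.65% of all genes), with a median of 0.74. Without s40W replicate 1 the median was 0.35, with 1 DEG left of the 4 (1.39% of all genes). Of the 4 DEGs *Abhd5*, the co-activator of the triglyceride lipase, was at 73.0, 103 and 105 normalized CPM without ligature and at 115, 157 and 175 with it (log2 fold change 0.66 ± 0.23), a call lost without s40W replicate 1. The triglyceride lipase itself, *Pnpla2*, and the hormone-sensitive lipase, *Lipe*, were higher by 0.93 and 0.94 on the log2 scale. The droplet coat genes *Plin1* and *Plin4* missed the criteria, at 0.87 ± 0.44 and 0.83 ± 0.46.

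De novo lipogenesis did not move as a block: of 12 fatty acid synthesis genes *Acacb* was a DEG higher with ligature (1.46 ± 0.51) and *Mlxipl*, the carbohydrate response factor ChREBP, was a DEG lower with it (-1.43 ± 0.52), and the median was 0.30. For this list and the 2 that follow, the share over all genes was 3.65% higher and 5.25% lower DEGs. *Mlxipl* was at 73.8, 37.8 and 47.9 normalized CPM without and at 18.5, 9.74 and 33.8 with ligature. Among 11 insulin signalling genes 3 were DEGs higher with ligature and 1 was a DEG lower with it. *Pde3b* (0.97) and *Tbc1d4* (0.72) were higher on the log2 scale. *Irs1*, the first docking protein of the insulin receptor, was lower (-0.65 ± 0.25), with values of 88.6, 72.0 and 79.4 against 46.3, 37.7 and 74.2. Without s40W replicate 1 neither the fatty acid synthesis list nor the insulin signalling list held a DEG in limma, and without s40WL replicate 2 the calls of *Mlxipl* and *Irs1* were lost. Of 16 fatty acid oxidation genes 1 was a DEG, *Ppara*, lower by -2.26 ± 1.05, and its 2 highest values were those of the mice with the most hepatocyte marker RNA among those without ligature, 355 and 120 in s40W replicates 1 and 3; its call was lost without s40W replicate 1 and also without s40WL replicate 2.

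Of 12 adipokines tested 4 were DEGs, all higher (3.65% of all genes): *Adipoq*, *Retn*, *Nrg4* and *Sfrp5*. The first 2 are also among the adipocyte markers above. Without s40W replicate 1 none of the 12 was a DEG in limma, and without s40WL replicate 2 the call of *Retn* was lost. *Sfrp5*, a secreted Wnt inhibitor that marks expanding fat, was at 34.2, 45.6 and 133 normalized CPM without ligature and at 232, 143 and 260 with it, a log2 fold change of 1.77 ± 0.68, or 1.38 without s40W replicate 1. Leptin (*Lep*) was at 278, 714 and 1235 against 1690, 1083 and 2207; the groups overlapped and it was not a DEG (1.35 ± 0.71, unadjusted p = 0.0691 in limma).

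The largest differences among genes that met the criteria without overlap were found outside these lists. *Rbp7*, a retinol-binding protein of adipose tissue and its endothelium, was at 7.96, 13.0 and 14.1 normalized CPM without ligature and at 42.5, 74.0 and 43.8 with it, so that the lowest ligatured mouse was well above the highest of the others. Its log2 fold change was 2.09 ± 0.43 (adjusted p = 0.163 in limma), 1.86 without s40W replicate 1 and 1.83 without s40WL replicate 2. *Hspb7*, a small heat shock protein best known from muscle, was at 5.03, 8.82 and 20.6 against 38.8, 22.0 and 84.1 (1.97 ± 0.52). *Myrip*, a linker of myosin and Rab proteins in exocytosis, was at 2.63, 4.18 and 5.91 against 15.1, 11.2 and 25.7 (1.78 ± 0.38). These 3 genes met the criteria whichever mouse was left out.

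*Ccl11*, the eosinophil attractant eotaxin, was the single DEG among 14 CC chemokines tested, higher with ligature (3.65% of all genes). It was at 10.8, 26.3 and 17.1 normalized CPM without ligature and at 39.8, 59.6 and 39.1 with it, with no overlap, a log2 fold change of 1.36 ± 0.37 (adjusted p = 0.191 in limma), and it also met the criteria whichever mouse was left out. *Arxes2*, a gene named for its expression in adipocytes, was higher by 1.68 ± 0.43, and its near copy *Arxes1*, with which it may share reads, was at 4.96, 12.2 and 21.3 against 21.5, 29.5 and 57.0. *Fgf13*, an intracellular fibroblast growth factor homologue, was higher by 2.02 ± 0.83 and met the criteria in 3 of the 6 fits that left out a mouse, not in that without s40W replicate 1. *Sycp3*, a protein of meiotic chromosomes, was higher by 1.91 ± 0.60 and met them in all 6. *Mmp12*, the macrophage elastase, was at 1.58, 2.77 and 4.09 against 12.7, 36.7 and 10.2 (2.29 ± 1.11) and met the criteria in 1 of the 6 fits that left out a mouse.

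Some of the largest values need a limit beside them. *Hist2h2aa2* was at 34.0, 7.72 and 0 normalized CPM without and at 45.7, 61.8 and 46.0 with ligature (2.94 ± 0.92), but it shares nearly its whole sequence with *Hist2h2aa1*, and the sum of the pair was 117, 131 and 136 against 176, 192 and 198. *Igkv12-44*, an immunoglobulin variable segment, rested on s40WL replicate 2, with 24.9 against 0.44 and 2.01 in the other ligatured mice. *Cr2*, *Cd79b* and *Bank1* were the 3 DEGs among 12 B cell markers, all higher (3.65% of all genes). They were highest in s40WL replicate 2, at 13.7, 26.1 and 49.3. Without that mouse the list held 0 DEGs, with a median of 0.19 in place of 0.91.

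**Figure D3:**
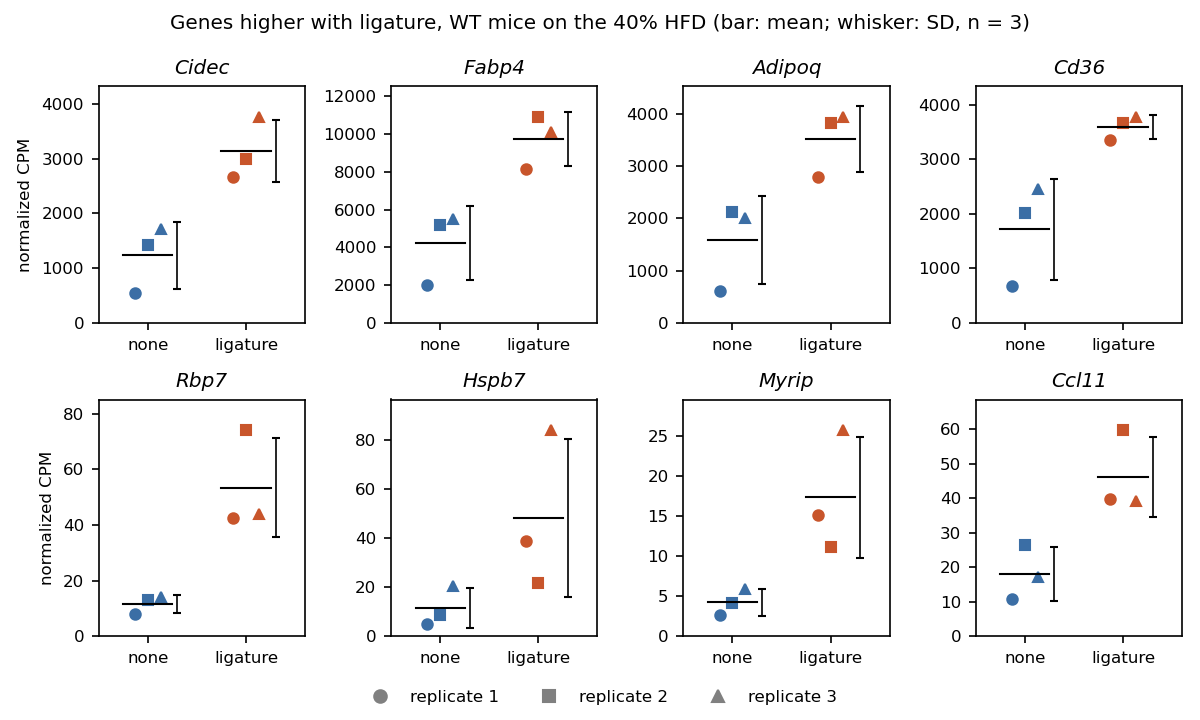
Normalized CPM of 8 genes that met the DEG criteria, higher with ligature, in each of the 6 WT mice on the 40% HFD (linear axis from 0; bar, mean; whisker, SD, n = 3). In none of the 8 did the groups overlap; for *Rbp7* the mice without ligature sit between 7.96 and 14.1 and those with it between 42.5 and 74.0.

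Interferon-stimulated genes were lower in the ligatured mice. Of 15 genes, 5 were DEGs, all lower (*Irf7*, *Usp18*, *Isg15*, *Ifit1* and *Rsad2*), where 5.25% of all genes were. The log2 fold change was below 0 for 14, and the median was -0.43 against -0.02 over all genes tested. For 6 of the 15 all ligatured mice were below all others (7.63% of all genes). Without s40W replicate 1 the median was -0.44 with 2 DEGs, without s40WL replicate 2 it was -0.64 with 7, and without both it was -0.63 with 4. Among all genes the lower DEGs of these 3 fits were 252 of 17807, 359 of 17781 and 151 of 17738.

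The promoters of these genes are shown because the list is defined by a shared response. In the RefSeq promoters of GRCm38.p6, from 250 bases before to 50 after the start, the letters GAAA followed by any 2 bases and GAAA again, the core of an interferon-stimulated response element, were searched on both strands, overlapping matches included. They were found in 8 of the 12 list members with a promoter entry and in 3.97% of 12539 genes tested that had one. Among DEGs with an entry they were found in 3.60% of the higher and 3.44% of the lower genes, near that background. Of the lower DEGs of the list, *Usp18* had no promoter entry and was not searched, and the window of *Irf7* held no match. *Isg15*, *Ifit1* and *Rsad2* held them upstream of the start, as printed here 5′ to 3′ on the strand of the gene with the matches in capitals.
*Isg15*, chr4:156200835-156200936, minus strand: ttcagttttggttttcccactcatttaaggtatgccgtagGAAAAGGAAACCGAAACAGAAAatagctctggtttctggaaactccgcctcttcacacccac
*Ifit1*, chr19:34640745-34640853, plus strand: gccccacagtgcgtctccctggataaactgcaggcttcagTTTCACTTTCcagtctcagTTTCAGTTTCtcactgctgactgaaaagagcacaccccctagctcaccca
*Rsad2*, chr12:26456523-26456612, minus strand: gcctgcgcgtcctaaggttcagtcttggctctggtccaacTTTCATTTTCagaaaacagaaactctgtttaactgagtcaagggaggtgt
*Gbp2*, chr3:142620564-142620653, plus strand: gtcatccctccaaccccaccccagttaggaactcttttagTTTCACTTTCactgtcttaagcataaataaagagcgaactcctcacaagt

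*Gbp2* is printed as a member of the list that also holds the match and was not a DEG: it was at 58.4, 63.8 and 68.2 normalized CPM without ligature and at 59.7, 58.4 and 48.2 with it. *Irf7*, the factor that amplifies the interferon response, had the lowest p of the list. It was at 50.3, 28.6 and 28.9 without ligature and at 17.6, 16.5 and 15.5 with it, with all ligatured mice well below the others. The log2 fold change was -1.03 ± 0.24 (adjusted p = 0.182 in limma), and -0.76 without s40W replicate 1. *Usp18*, which removes ISG15 from proteins and dampens the interferon receptor, was at 10.1, 6.18 and 6.97 against 2.93, 2.91 and 4.33 (-0.99 ± 0.26). Both met the criteria whichever mouse was left out.

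The other 3 were at lower or more scattered values. *Isg15*, a ubiquitin-like modifier with 3 of the matches printed above, was at 7.29, 3.35 and 2.96 against 2.05, 2.78 and 1.20 (-0.83 ± 0.28). *Ifit1*, which binds foreign RNA, was at 22.6, 15.3 and 13.6 against 9.95, 10.8 and 8.10 (-0.75 ± 0.31). *Rsad2*, the antiviral protein viperin, was at 18.4, 7.40 and 6.44 against 2.64, 5.38 and 4.81 (-1.06 ± 0.43). In all 3 genes s40W replicate 1 was highest and the groups did not overlap, and without that mouse none of the 3 was a DEG in limma. *Oas1a*, *Ifit3* and *Cxcl10* were not DEGs.

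Other genes of innate sensing went in both directions. Among 11 Toll-like receptor genes, *Tlr4*, the receptor for bacterial lipopolysaccharide, was higher, at 29.4, 50.5 and 39.9 normalized CPM against 57.5, 80.6 and 63.0 (0.75 ± 0.28). *Myd88*, the adaptor through which most of these receptors signal, was lower, at 37.0, 23.3 and 21.3 against 16.4, 16.6 and 18.1 (-0.61 ± 0.20). Neither overlapped between the groups, and the other 9 were not DEGs (over all genes 3.65% were higher and 5.25% lower DEGs). Both calls were lost without s40W replicate 1, and that of *Tlr4* also without s40WL replicate 2.

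A list of 18 genes of cytokines and their receptors gave no DEG among the 14 tested, and the rest were too low to be tested. For 1 of the 14 all ligatured mice were below all others (7.63% of all genes). *Tnf* was at 0.150, 0.193 and 0.455 normalized CPM without ligature and at 0.659, 1.01 and 0.321 with it, values of few reads that overlap (0.38 ± 0.28). *Il1b* was at 2.18, 0.386 and 0.455 against 0.220, 1.01 and 0.241 (-0.36 ± 0.27), and *Ccl2*, a chemokine for monocytes, was 2.55, 5.47 and 6.90 against 3.00, 5.19 and 1.04 (-0.61 ± 0.53). *Spp1*, which encodes osteopontin, was at 2.78, 0.708 and 2.05 against 1.61, 1.96 and 4.17 (0.34 ± 0.87), so that a change of either sign lies within its error. Of the 13 genes the study followed in eWAT, *Srp54b* was the DEG, lower (5.25% of all genes), at 25.8, 20.7 and 20.9 against 15.7, 0.696 and 16.9 (-1.55 ± 0.55). That value rested on s40WL replicate 2, without which it was -0.43, and the near copies *Srp54a* and *Srp54c* were higher by 0.46 and 0.42 and were not DEGs.

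Macrophage markers were not clearly different as a list. Of 12 markers 1 was a DEG, higher with ligature (3.65% of all genes). This was *Cd163*, the haemoglobin scavenger receptor of resident macrophages, at 70.8, 140 and 98.8 normalized CPM against 214, 262 and 189 (1.14 ± 0.45). The median of the list was 0.37, or 0.16 without s40W replicate 1. The call of *Cd163* was lost without that mouse and also without s40WL replicate 2. Of 11 markers of lipid-associated macrophages *Mmp12* and *Fabp5* were DEGs, both higher (3.65% of all genes), and *Gpnmb*, *Trem2* and *Spp1* were not. Without s40W replicate 1 this list held 0 DEGs in limma. The T and NK cell, dendritic cell, neutrophil, plasma cell and mast cell lists held 0 DEGs each in limma, as did the MHC class II list. *Tek*, the angiopoietin receptor of endothelium, was higher by 0.88 ± 0.29 and *Pdgfra*, a marker of fat progenitors, by 0.87 ± 0.42. Each was the single DEG of its list, among 10 and 9 genes (3.65% of all genes were higher DEGs). Both calls were lost without s40W replicate 1, and that of *Pdgfra* also without s40WL replicate 2.

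Of 18 extracellular matrix genes *Col1a1* and *Col3a1* were DEGs, both lower (5.25% of all genes), and the median of the list was -0.23. *Col1a1*, the chain of fibrillar collagen I, was at 590, 1108 and 1495 normalized CPM without ligature and at 879, 281 and 255 with it (-1.32 ± 0.48), and *Col3a1* was at 2558, 2945 and 3570 against 2848, 1415 and 894 (-0.97 ± 0.46). In both, s40WL replicate 1 lay among the mice without ligature, and both calls were lost without s40WL replicate 2. Of 9 mesothelial markers the keratins *Krt8* and *Krt18* were DEGs, both lower (5.25% of all genes), at -1.36 ± 0.63 and -1.64 ± 0.74. The median of the list was -0.79. The mesothelial list held 0 DEGs in limma without s40W replicate 1 and also without s40WL replicate 2, and liver also expresses both keratins.

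Lists of 9 to 16 stress and clock genes each gave 1 or 2 DEGs, where 3.65% of all genes were higher and 5.25% lower DEGs. Most of these calls were lost without s40W replicate 1. *Zfp36*, which destabilises cytokine mRNA, was at 78.8, 49.8 and 43.4 against 33.9, 33.3 and 36.5 (-0.67 ± 0.20). *Atf4*, the factor of the integrated stress response, was at 99.2, 70.0 and 81.0 against 62.1, 45.4 and 50.6 (-0.65 ± 0.21). *Nr1d1*, the clock repressor REV-ERBα, was at 158, 92.6 and 107 against 76.3, 66.6 and 40.0 (-0.97 ± 0.37), and *Nfil3* was lower by -1.53 ± 0.47, while the other 14 of 16 clock genes were not DEGs. *Pdk4*, which spares glucose by blocking pyruvate dehydrogenase, was higher, at 54.4, 104 and 82.2 against 254, 167 and 150 (1.25 ± 0.50). None of these 5 genes was a DEG without s40W replicate 1, nor was *Atf4* without s40WL replicate 2.

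The gene with the lowest p of all was *Bcar1*, the adaptor p130Cas of focal adhesions. It was at 48.1, 25.9 and 35.1 normalized CPM without ligature and at 17.1, 12.7 and 16.9 with it, with a clear gap between the groups. The log2 fold change was -1.14 ± 0.20 (adjusted p = 0.0647 in limma and 0.0308 in edgeR), and -0.92 without s40W replicate 1. *Zfp787*, a zinc finger protein, was lower by -0.85 ± 0.17 and *Tent4a*, a poly(A) polymerase, by -0.68 ± 0.14, both with an adjusted p of 0.163 in limma; *Tent4a* was not a DEG without s40WL replicate 2.

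The largest falls included an acute phase gene and a gene of red blood cells. *Saa2*, an acute phase serum amyloid, was at 344, 9.08 and 3.34 normalized CPM without ligature and at 2.27, 0.0633 and 0.882 with it, and its log2 fold change of -3.72 ± 0.94 was -1.82 without s40W replicate 1. Its near copy *Saa1* was at 328, 12.2 and 4.62 against 7.47, 0.38 and 2.81, and was not a DEG without s40W replicate 1. Of the 10 acute phase genes *Saa1* and *Saa2* were the DEGs, both lower (5.25% of all genes). *Saa3*, the member expressed in fat, was at 61.0, 4.06 and 5.84 against 29.7, 25.1 and 5.70. *Hba-a2*, α-globin, was at 4296 in s40W replicate 1 and at 60.5 to 228 in the other 5 mice, and its call was lost without that mouse and also without s40WL replicate 2.

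Another 8 of the 10 largest falls were, among the mice without ligature, highest in replicates 1 and 3, as the hepatocyte markers were: *Hsd17b6*, *Mup12*, *Sgk2*, *Grb7*, *BC024386*, *Nr0b2*, *Osgin1* and *Epb41l4b*, with log2 fold changes of -2.74 to -2.45. *Nr0b2*, which represses bile acid synthesis, was at 26.8, 3.99 and 15.8 against 2.71, 0.127 and 2.09. For each of the 8 the lowest value was that of s40WL replicate 2, and all but *Nr0b2* and *Osgin1* lost their call without that mouse and also without s40W replicate 1. The 18 hepatocyte markers summed to 43320, 12450 and 47160 normalized CPM without ligature and to 11390, 1964 and 32630 with it; the log2 fold change was below 0 for all 18, the median was -2.28, none was a DEG in limma, and no marker was at 0. Without s40W replicate 1 and s40WL replicate 2 the median was -0.46. The other 30 libraries ranged from 137 to 51320, and the part of this RNA in the single falls was not tested.

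**Figure D4:**
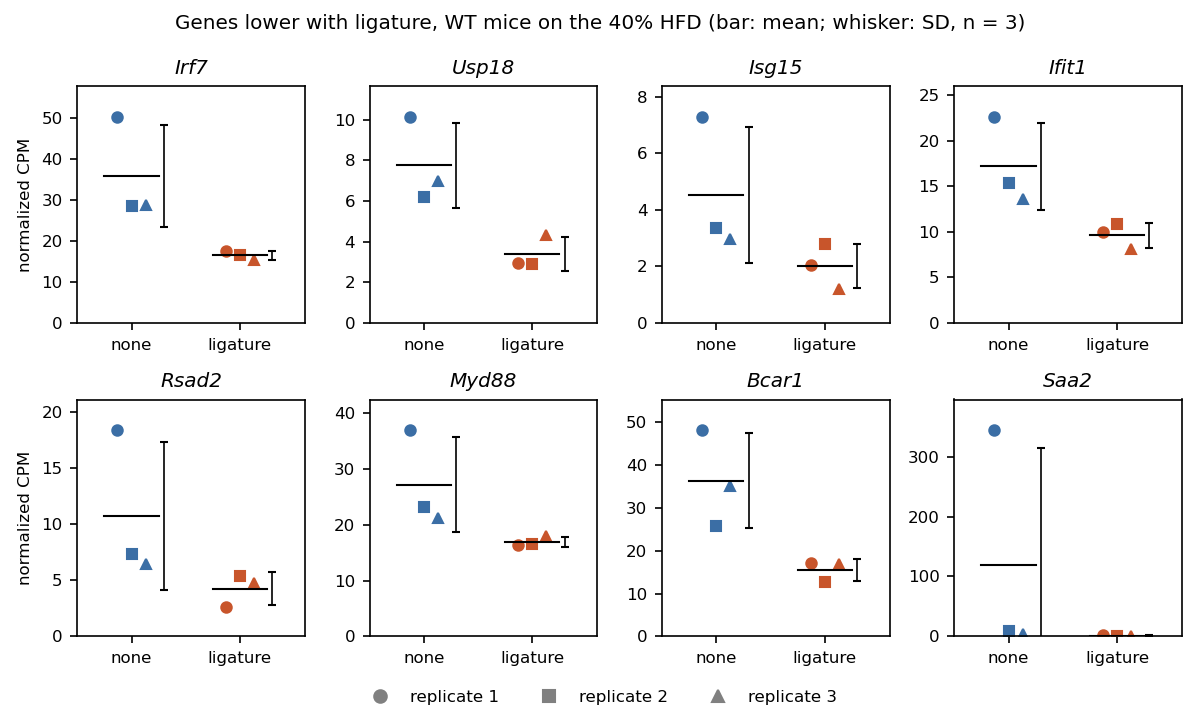
Normalized CPM of 8 genes that met the DEG criteria, lower with ligature, in each of the 6 WT mice on the 40% HFD (linear axis from 0; bar, mean; whisker, SD, n = 3). *Irf7* sits at 15.5 to 17.6 with ligature and at 28.6 to 50.3 without, and *Saa2* is set by s40W replicate 1 at 344.

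Whether the ligature effect differed from that of other groups was tested by the difference of the effects in the same limma fit. Against WT mice on ND 438 genes passed an adjusted p of 0.05 (2.45%). The log2 fold change of ligature was higher on the 40% HFD for 237 of them and lower for 201. *Sfrp5* fell with ligature on ND, from 199, 125 and 96.3 normalized CPM to 3.45, 17.2 and 8.20, and the difference of the effects was 5.67 ± 0.96 (adjusted p = 0.00727 in limma). *Alb*, the albumin of the liver, was at 5.55, 7.85 and 13.4 in ND mice without ligature and at 4731, 5423 and 718 in those with it, and was at 267 to 19190 in the 6 mice on the 40% HFD (difference -10.32 ± 2.70, adjusted p = 0.0457 in limma). This count fell to 5 genes without s40W replicate 1 and to 9 without s40WL replicate 3.

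Against WT mice on the 60% HFD 0 genes passed in limma (0%), with 880 at an unadjusted p under 0.05 (4.93%, where 5% are expected if no gene differs) and 28 in DESeq2. Against CCL19-KI mice on the 40% HFD 0 genes passed as well (0%), with 681 (3.81%) and 6. For *Cidec* the difference of the effects was 1.79 ± 0.52 against the 60% HFD and 1.24 ± 0.52 against CCL19-KI mice, and for *Irf7* it was -0.65 ± 0.34 and -1.09 ± 0.34, all with adjusted p of at least 0.938 in limma. The ligature effects on their own gave 2933 DEGs in WT mice on ND (1202 genes with an adjusted p under 0.05 in limma), 94 in WT mice on the 60% HFD and 148 in CCL19-KI mice on the 40% HFD, against 1590 here. Of the 1590, 96 were also DEGs in the same direction on ND (3.27% of the DEGs there) and 180 in the opposite one. On the 60% HFD 15 were shared in the same direction (16.0%) and in CCL19-KI mice 50 (33.8%), with 3 in the opposite one in each. Among all genes tested 3.65% were higher and 5.25% lower DEGs here. Over all genes the Pearson correlation with the log2 fold changes here was -0.40 on ND, 0.29 on the 60% HFD and 0.55 in CCL19-KI mice. By rank (Spearman) it was weaker, at -0.13, 0.25 and 0.38. The sign was the same as here for 47.9%, 58.3% and 60.6% of all genes. The median over the 12 adipocyte markers was 0.15 on ND, -0.14 on the 60% HFD and 0.28 in CCL19-KI mice, and over the 15 interferon-stimulated genes -0.10, -0.30 and -0.04. These 3 comparisons share no mouse with the one described here.

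**Figure D5:**
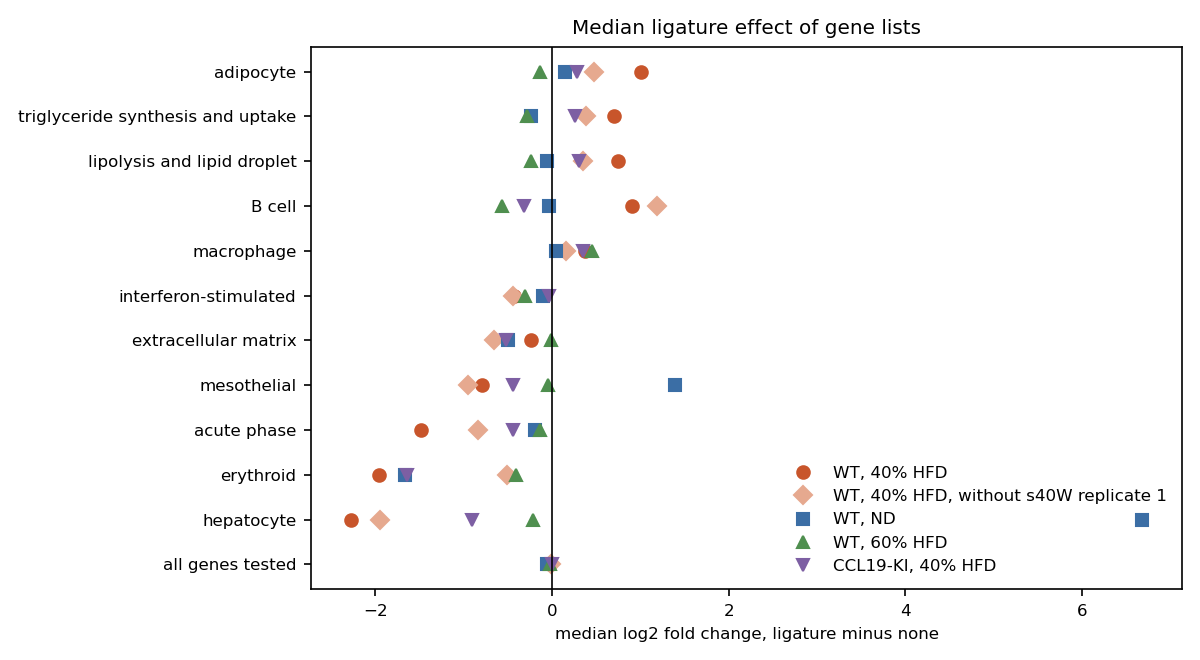
Median log2 fold change of ligature against no ligature (horizontal axis) over the members tested of 11 gene lists and over all genes, for WT mice on the 40% HFD with and without s40W replicate 1, and for 3 other comparisons. The adipocyte median is 1.01 on the 40% HFD and 0.48 without that mouse, and the hepatocyte list reaches 6.68 on ND and -2.28 on the 40% HFD.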

How the data were processed

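RNA of eWAT from single mice was rRNA-depleted and sequenced as directional libraries. According to the authors, reads were trimmed (Trimmomatic 0.38), aligned with Bowtie2 within RSEM 1.3.0 and normalized with edgeR. The genome is mm10 in the methods and GRCm39 in the submitters' processing notes. The signal values deposited by the authors are thus normalized CPM of 24750 genes, and divided by the smallest value of their library 100% gave whole numbers (tolerance 0.01), taken as reads. Genes that reached 1 normalized CPM in 3 or more libraries were tested with limma 3.58.1 (trend) on log2(normalized CPM + 1), with all 36 mice as 12 group means and Benjamini-Hochberg adjustment. Fold changes are on that scale and understate low genes. edgeR 4.0.16 (quasi-likelihood) and DESeq2 1.42.0 were run on the recovered reads, and the fits were tested on simulated data. Replicates are separate mice (n = 3 a group); no pair of the 36 libraries agreed within sampling noise. Same-numbered mice of the groups did not deviate together in all pairs, so the numbers were not used for pairing. GC content and gene type came from GENCODE M21, which held 24634 of the gene IDs. Promoters are of RefSeq.

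Named were the 10 largest rises and falls among DEGs without overlap and with a higher group mean of at least 2 normalized CPM, members of 47 gene lists that were DEGs, the eWAT genes of the study, and up to 5 genes each way for a difference of effects; predicted models, pseudogenes and small RNA genes were counted but not named (68 of 456 rises, 36 of 409 falls). Some list members are not reported here. *Bcar1*, *Zfp787* and *Tent4a* were named for their low p, and list members that were not DEGs after their values were seen. The members and lists were chosen with earlier results of these data known. Alternatives left out each mouse, changed the pseudocount (0.1, 5), filter, scaling, samples or tool, or added the replicate block. After seeing the data, the fits without s40W replicate 1 and s40WL replicate 2 together and with a GC correction were added.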

Additional observations from a re-analysis of the deposited data

Results flagged for a closer look

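The ligature effect differed between WT mice on the 40% HFD and on ND for 438 genes at an adjusted p of 0.05 in limma, by the test of the difference itself. The 5 named genes whose log2 fold change of ligature was higher on the 40% HFD were *Muc5b* (difference of 6.64), *Slc5a7* (6.19), *Fgf13* (5.71), *Sfrp5* (5.67) and *Hist2h2aa2* (4.81). *Muc5b*, a secreted mucin, was at 29.5, 425 and 8.85 normalized CPM in ND mice without ligature and at 0.0507 to 0.138 in those with it, and was at or under 0.146 in 5 of the 6 mice on the 40% HFD, with 8.34 in s40WL replicate 3. *Slc5a7*, the choline transporter, was at 190, 8.63 and 5.45 in ND mice without ligature and at 0.0774 to 0.253 with it. The 5 whose log2 fold change of ligature was lower on the 40% HFD were genes of the liver: *Apob* (-11.23), *Cps1* (-10.35), *Alb* (-10.32), *Cyp3a11* (-10.22) and *Serpina1e* (-10.12). *Apob*, the protein of low-density lipoprotein, was at 0.979, 0.668 and 0.450 in ND mice without ligature, at 1797, 1799 and 153 in ND mice with it, at 6484, 1679 and 6656 in s40W and at 1544, 75.5 and 4646 in s40WL. Over these 5 genes the ligature effect was 7.27 to 8.88 on ND and -2.85 to -2.16 on the 40% HFD, where none of them was a DEG.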

How the results depend on the processing

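With 3 mice a group, p-values rest on a spread pooled over 36 mice. Genes with an adjusted p under 0.05 numbered 2 with a pseudocount of 5, 1 in edgeR, 127 in DESeq2 and 0 to 7 when a mouse was left out. DEGs numbered 1059 (372 higher) with a pseudocount of 5, 957 (410 higher, 547 lower) with only the 6 mice compared, 294 (143 and 151) without s40W replicate 1 and s40WL replicate 2, and 572 lower with quantile normalization, which gave all genes a median of 0.0656 (-0.022 in the reported fit). Leaving out a mouse gave 499 to 2973 DEGs, 247 to 965 higher and 252 to 2008 lower. The difference from ND gave 737 genes with a pseudocount of 0.1, 185 with no filter, 282 with quantile normalization, 778 in edgeR, 1879 in DESeq2, 918 with only the 18 WT mice, 26 without both libraries and 5 to 470 when a mouse was left out. The difference from the 60% HFD gave 28 in DESeq2, and that from CCL19-KI mice 6 in DESeq2 and 0 to 1 when a mouse was left out. The cause was not tested. With the replicate block 1559 genes were DEGs, 0 passed the adjusted p, and the difference from ND gave 356; correlations of deviations of same-numbered mice were -0.15, 0.40 and 0.32, which does not pair them. Of the 1590 DEGs 2 changed sign without s40W replicate 2, 3 without both libraries and 0 in the other fits. The genes named here that changed sign were not DEGs: with a mouse left out, *Il1b* ranged from -0.59 to 0.029, *Gpnmb* from -0.05 to 1.00, *Mest* from -0.54 to 0.84, *Cyp2b9* from -0.34 to 0.76 and *Cyp2a22* from -0.68 to 0.18, and without both libraries *Gpnmb* was at -0.074, *Mest* at -0.22, *Cyp2a22* at 0.19 and *Acot3* at 0.37.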

Other observations

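Among the 171 DEGs that met the criteria whichever mouse was left out, some further genes were picked after their values were seen and are given as values. *Gpihbp1*, which carries lipoprotein lipase across capillary endothelium, was at 8.11, 19.3 and 25.9 normalized CPM in s40W replicates 1 to 3 and at 33.1, 35.9 and 45.6 in s40WL replicates 1 to 3. *Adig*, adipogenin, was at 21.9, 71.0 and 70.7 against 97.5, 141 and 124, and *Cavin2*, a coat protein of caveolae, at 214, 484 and 452 against 592, 875 and 918. *Serpina12*, the adipokine vaspin, went the other way, at 25.1, 3.03 and 10.3 against 1.10, 0.443 and 2.41. *Abcg1*, a cholesterol exporter, was at 36.7, 56.1 and 56.1 against 114, 126 and 109. In *Gpihbp1*, *Adig*, *Cavin2* and *Abcg1* the ligatured mice were above the others and s40W replicate 1 was the lowest.

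Of genes of the interferon pathway outside the list of 15, *Irf9*, the DNA-binding part of the type I interferon factor, was at 61.4, 30.2 and 38.7 against 22.0, 25.0 and 20.9 (log2 fold change -0.86). *Ube2l6*, the enzyme that conjugates ISG15, was at 127, 34.2 and 46.5 against 27.2, 17.9 and 21.6 (-1.39), and *Ifitm3*, a barrier to virus entry, at 173, 147 and 152 against 117, 88.4 and 74.3 (-0.77). By contrast, *Ifngr1*, the ligand-binding chain of the interferon-γ receptor, was at 47.4, 121 and 107 against 155, 194 and 189 (1.06). *Gdf15*, a stress hormone, was lower, at 5.71, 3.15 and 4.55 against 1.54, 0.633 and 0.963 (-1.42), and so was *Bcl3*, a co-factor of NF-κB, at 18.7, 5.86 and 8.87 against 4.32, 1.90 and 3.05 (-1.47). The groups did not overlap in any of these 6 genes.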
